A study of Mus musculus with 12 samples.

Results

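The 10 genes described here encode the enzymes that remove methyl groups from lysine 27 of histone H3 (Kdm6a and Kdm6b), those that remove them from lysine 9 (Kdm3a, Kdm3b, Kdm4a and Kdm4c), and those that add them to lysine 9 (Ehmt1, Ehmt2, Setdb1 and Suv39h1). They were chosen by name as the enzymes acting beside or against the H3K27 methyltransferase EZH2, and each matched 1 of the 37991 gene rows of the count table. RNA was sequenced from primordial germ cells, the precursors of eggs and sperm, sorted from mouse embryos on a C57BL/6 background at E13.5 (embryonic day). The 12 libraries, 1 per embryo, were 2 female embryos with a conditional knockout of Ezh2 (CKO), 3 female control embryos (Ctrl), 3 male CKO embryos and 4 male Ctrl embryos. The labels give neither the Cre driver nor the deleted exons, the litters or the genotype of the Ctrl embryos. The study asks what the loss of EZH2, and with it of H3K27 trimethylation, does to the RNA of germ cells of each sex.

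EZH2 is the catalytic subunit of Polycomb repressive complex 2 (PRC2), whose mark, H3K27me3, goes with gene silencing, and KDM6A and KDM6B take that mark off. Methylation of H3K9 is a separate repressive mark of heterochromatin, retroelements and silenced genes, and its level depends on the balance of the KDM3 and KDM4 demethylases with the methyltransferases. Mouse primordial germ cells lose much of their H3K9 dimethylation and most of their DNA methylation while they migrate and settle in the gonad, and H3K27me3 is high during that time.

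Total counts ran from 26180685 to 35299206 per library, so that 1 CPM, the unit of counts scaled to library size, stood for between 24.2 and 34.2 counts. Kdm6b had between 8 and 119 counts per library, while the lowest count of any other of the 10 genes was 350. Germ cell markers (Ddx4, Dazl, Pou5f1, Dnd1, Nanos3, Kit, Tfap2c and Dppa3) summed to 5620 and 5730 CPM in female CKO against 5910 to 6150 CPM in female Ctrl, and to 5580 to 6060 CPM in male CKO against 5500 to 6100 CPM in male Ctrl. Of these, Pou5f1 (128 and 156 CPM against 196, 220 and 214) and Kit (335 and 390 against 550, 473 and 554) were lower in both female CKO libraries than in every female Ctrl library. So were Dppa3 (441 and 408 against 564, 682 and 757) and Dnd1 (119 and 171 against 224, 194 and 202), as for 22.3% of all genes tested. Ddx4 (1390 and 1190 against 1190, 1140 and 1080), Dazl (3220 and 3130 against 3110, 2990 and 3160), Nanos3 and Tfap2c were not. The part of these markers in the results was not tested. Ezh2 was at 84.5 and 107 CPM in female CKO against 150, 145 and 166 CPM in female Ctrl, and at 85.8, 82.4 and 85 CPM in male CKO against 96.6, 144, 129 and 119 CPM in male Ctrl. It was thus lower in every CKO library than in any Ctrl library of its sex (log2 fold change -0.68 in females, edgeR adjusted p = 0.02, and -0.61 as the mean of both sexes, edgeR adjusted p = 0.0022). The male value of -0.53 was not called in edgeR (adjusted p = 0.0527) and was in limma-voom (0.00825) and DESeq2 (0.00656). The female call ended on leaving out female CKO 1 (edgeR adjusted p = 0.165) or female Ctrl 3 (0.0779). Counts over the whole gene do not tell intact from deleted transcript. Endothelial markers (Cdh5, Kdr, Tie1 and Emcn) summed to 0.907 to 1.81 CPM in female CKO against 0.338 to 0.377 in female Ctrl, and to 1.31 to 2.29 in male CKO against 0.536 to 0.818 in male Ctrl. Summed red blood cell markers reached 8.99 CPM in female CKO 1 and 18.4 CPM in male CKO 1, against at most 1.2 CPM in any Ctrl library. In female CKO 2, male CKO 2 and male CKO 3 they were at 0.662, 0.59 and 0.241 CPM, within the Ctrl range. Stromal markers summed to 9.43 and 28.3 CPM in female CKO against 2.28 to 8.81 in female Ctrl. In males the stromal sums overlapped, at 3.85 to 20.4 CPM in CKO and 4.86 to 13.1 in Ctrl. The part of these other cells in the CKO results was not tested, and in sorted bulk cells a change of cell makeup and a change of RNA per cell cannot be told apart.

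RNA of all 10 genes was found in the sorted cells of both sexes, and Setdb1 had the highest mean of the 10 in each group. Levels between genes are compared as CPM per kilobase of exon. Setdb1, which trimethylates H3K9 at retroelements, was first in each group, with 28.1 in female CKO, 33.3 in female Ctrl, 34.9 in male CKO and 41.0 in male Ctrl. Kdm6b was last in each group, with 0.438, 0.164, 0.275 and 0.306 in the same order of groups. Whether its few reads came from germ cells was not tested. In females Suv39h1 was second, at 28.0 in CKO and 31.1 in Ctrl, with ranges that overlapped those of Setdb1 in CKO and in Ctrl embryos. In males Ehmt2 was second, apart from Setdb1 and overlapping Suv39h1. Among the 10 genes Kdm3a was the most abundant of the demethylases in each group, at 14.2 in female CKO against 23.9 in female Ctrl and at 18 in male CKO against 22.9 in male Ctrl. Its place in the order differed between the female groups, where it stood below Ehmt2 in CKO and above it in Ctrl, with ranges apart in each. Kdm3b, Kdm4a and Kdm4c were low, between 2.46 and 5.4 as group means, and in male CKO and male Ctrl the ranges of Kdm4c and Kdm3b overlapped, as did those of Kdm3b and Kdm4a.

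Promoter windows of 300 bases were examined for 8 of the 10 genes, leaving out Kdm3b and Kdm6b. The windows ran from 250 before to 50 after a RefSeq transcript start on GRCm38.p6. Those of 4 genes are shown, since the results turn on them, namely Kdm3a and Kdm4c, which passed the test in CKO cells, and the X-linked Kdm6a and Suv39h1. They lie at chr6:71632637-71632936 (minus strand, Kdm3a), chr4:74251629-74251928 (plus strand, Kdm4c), chrX:18162325-18162624 (plus strand, Kdm6a) and chrX:8074312-8074611 (minus strand, Suv39h1). For Kdm3a, Kdm4c and Suv39h1 the table lists further starts, and the window richest in CpG is given. Capitals mark matches, on either strand, to the GC box GGGCGG, the CCAAT box CCAAT, the cAMP response element TGACGTCA, the E-box CACGTG and the ETS motif CCGGAAG.
Kdm3a: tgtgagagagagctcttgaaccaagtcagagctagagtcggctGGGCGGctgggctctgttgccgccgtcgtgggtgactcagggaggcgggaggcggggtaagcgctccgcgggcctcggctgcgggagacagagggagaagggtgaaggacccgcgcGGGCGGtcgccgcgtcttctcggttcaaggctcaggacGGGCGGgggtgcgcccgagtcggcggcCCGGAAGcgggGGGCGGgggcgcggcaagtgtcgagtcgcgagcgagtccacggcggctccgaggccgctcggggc
Kdm4c: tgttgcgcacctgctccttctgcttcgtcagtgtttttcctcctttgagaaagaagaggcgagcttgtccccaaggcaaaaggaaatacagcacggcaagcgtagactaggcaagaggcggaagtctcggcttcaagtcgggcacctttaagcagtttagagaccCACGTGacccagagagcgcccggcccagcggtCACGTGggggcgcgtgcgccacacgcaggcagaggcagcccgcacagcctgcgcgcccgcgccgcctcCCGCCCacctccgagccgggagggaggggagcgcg
Kdm6a: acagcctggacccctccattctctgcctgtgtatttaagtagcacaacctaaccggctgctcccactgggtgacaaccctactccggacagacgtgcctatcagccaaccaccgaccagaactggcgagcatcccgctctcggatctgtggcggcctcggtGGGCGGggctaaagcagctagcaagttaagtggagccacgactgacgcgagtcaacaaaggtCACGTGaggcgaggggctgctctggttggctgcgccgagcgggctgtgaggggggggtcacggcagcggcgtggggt
Suv39h1: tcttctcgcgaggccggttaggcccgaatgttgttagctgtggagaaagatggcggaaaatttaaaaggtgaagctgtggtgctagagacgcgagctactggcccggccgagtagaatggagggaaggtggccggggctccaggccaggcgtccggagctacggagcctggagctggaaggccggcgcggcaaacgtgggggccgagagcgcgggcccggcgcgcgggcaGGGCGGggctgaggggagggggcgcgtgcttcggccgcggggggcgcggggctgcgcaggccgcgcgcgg
The windows shown hold 40 CpG in Kdm3a, 28 in Kdm4c, 21 in Kdm6a and 37 in Suv39h1. Since 3 of them were picked for their CpG, no comparison with other promoters is made on it, and the windows not shown hold 24 and 0 CpG in Kdm3a, 0 in Kdm4c and 15 in Suv39h1. Each window shown holds a GC box, with 4 in Kdm3a and 1 in each of the other windows. Of all 32851 promoter windows of the same length, 35.7% hold at least 1. Of the windows not shown, those of Kdm3a hold 3 and 0 GC boxes, that of Kdm4c 0 and that of Suv39h1 1. The GC box, E-box and ETS motif each contain a CpG, so the choice by CpG bears on their counts. The shares of all windows are thus no test of them. The Kdm4c window shown has 2 E-boxes, the Kdm4c window not shown 0 and the Kdm6a window 1, and 7.15% of all windows have this motif. The Kdm3a window shown has 1 ETS match and those not shown 0, and 8.86% of all windows have this motif. No window shown matched the CCAAT box (37.4%) or the cAMP response element (1.79%), while the first listed windows of Kdm3a and Suv39h1, not shown, hold 2 CCAAT boxes each. A match describes the letters and is not evidence of binding.

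**Figure D1:**
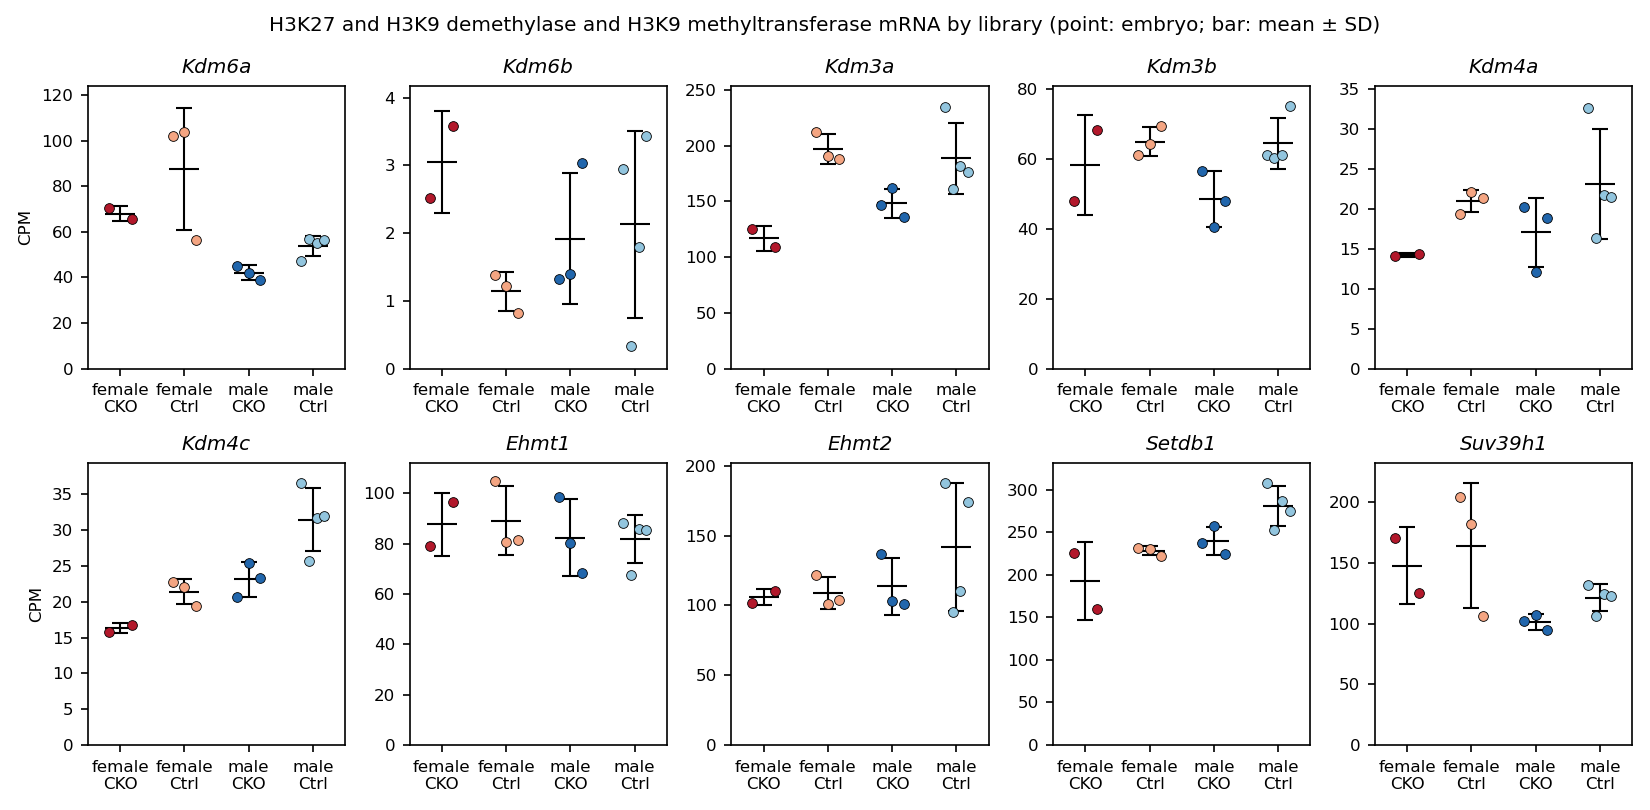
CPM of each of the 10 genes by group, with 1 point per library and the mean ± SD as bars, each vertical axis starting at 0. Kdm3a lies at 109 and 125 CPM in female CKO, below the 3 female Ctrl libraries at 188 to 212 CPM, while the Kdm6b panel spans 0.33 to 3.58 CPM.

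Kdm3a was the 1 gene of the 10 that changed in female CKO germ cells, where it fell, and in males none of the 10 was called. Averaged over both sexes, Kdm3a and Kdm4c, both H3K9 demethylase genes, fell, and no gene rose. A gene was called at an edgeR adjusted p under 0.05, adjusted over the 16708 genes tested, and all 10 were tested. In females 1 of 10 was called against 7.17% of all genes tested, 2 were lower at an unadjusted p under 0.05 (Kdm3a and Kdm4c) against 12.3%, and in males 0 of 10 against 1.7%, with 3 of the 10 lower at an unadjusted p under 0.05 (Kdm4c, Kdm3b and Kdm3a) against 8.2% of all genes. In males Kdm4c was called in DESeq2 and in limma-voom, and Kdm3b in limma-voom. For the mean effect 2 of 10 were called against 14.7% of all genes, and 6 were lower at an unadjusted p under 0.05 against 15.4%. The shares called are thus near those of all genes. Log2 fold changes were below 0 for 9 of 10 genes in females (50.3% of all genes), where the exception was Kdm6b, and for 9 of 10 in males (52.3%), where it was Ehmt1 at 0.01. Their median was -0.2 in females and -0.34 in males, against 0 and -0.02 over all genes.

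**Figure D2:**
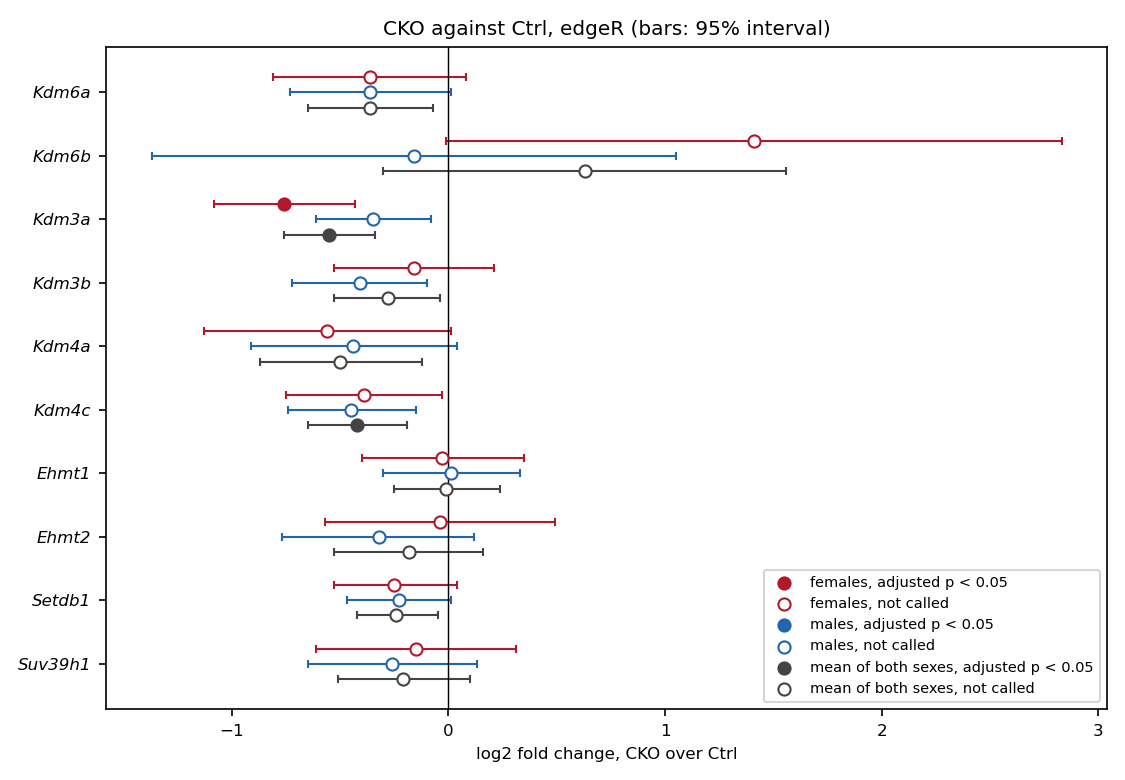
Log2 fold change of CKO over Ctrl from edgeR for each gene in females, males and as the mean of both sexes, with 95% intervals. Filled points, which passed at an adjusted p under 0.05, are Kdm3a in females and in the mean and Kdm4c in the mean, and the intervals of Kdm6b are the widest.

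Of the H3K27 demethylase genes neither was called in CKO cells. Kdm6a, X-linked and known to escape X inactivation in mouse, encodes a demethylase that also sits in the KMT2C and KMT2D complexes at enhancers. It was at 70.5 and 65.6 CPM in female CKO, against 102, 104 and 56.6 CPM in female Ctrl. Both CKO libraries lay below the first 2 Ctrl libraries and above the third, so the groups overlapped (log2 fold change -0.36, 95% interval -0.81 to 0.08, edgeR adjusted p = 0.308). Male values were 45.2, 42.1 and 38.8 CPM in CKO against 47.4, 56.9, 55.2 and 56.2 CPM in Ctrl. All male CKO libraries were below all male Ctrl libraries, as was so for 6.97% of all genes tested, and the log2 fold change was again -0.36 (95% interval -0.73 to 0.01, edgeR adjusted p = 0.321).

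Female Ctrl 3 was also low in X-linked genes as a whole. For each library the median log2 ratio to the male Ctrl mean was taken over 379 X-linked genes with a mean of at least 5 CPM, other than the genes described here, a measure added after their values were seen. It was 0.54 and 0.32 in female CKO, 0.57, 0.56 and 0.17 in female Ctrl, and between -0.04 and 0.01 in the 7 male libraries. Autosomal genes had medians of -0.13 in both female CKO libraries and of -0.06 to -0.01 in female Ctrl. Female Ctrl 3 thus stood between the other females and the males on the X as a whole, and its Kdm6a value lay within the male Ctrl range. Without female Ctrl 3, Kdm6a passed in females (log2 fold change -0.58, edgeR adjusted p = 0.0387) and in the mean of both sexes (-0.47, edgeR adjusted p = 0.00601). In each of these contrasts that was the 1 run that passed of the 12 that left out 1 library. The female value was -0.23 without female Ctrl 1 (edgeR adjusted p = 0.585) and -0.21 without female Ctrl 2 (0.635).

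**Figure D3:**
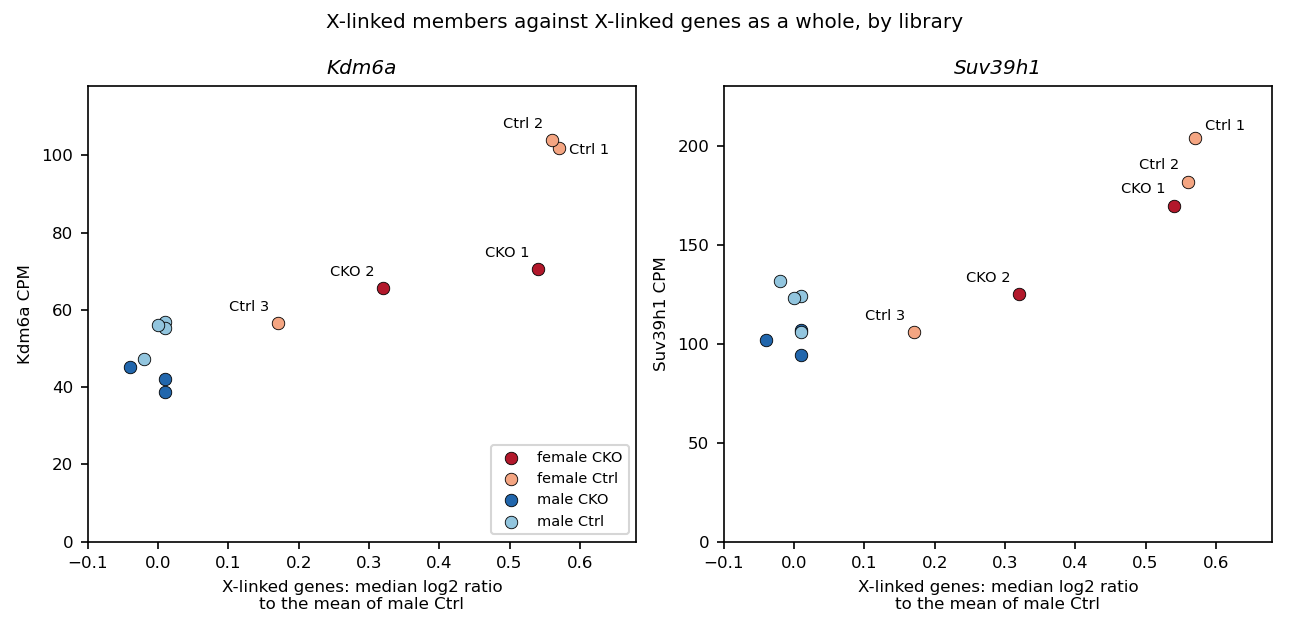
CPM of Kdm6a (left) and Suv39h1 (right) in each library against the median log2 ratio of 379 X-linked genes to the male Ctrl mean, with female libraries named. Female Ctrl 3 lies at 0.17 on the horizontal axis, between the male libraries and the other females, and is low in both genes.

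Uty, the Y-linked homolog of Kdm6a with weak demethylase activity, was counted separately. In males it was at 19.8, 24.6 and 21.5 CPM in CKO against 38.2, 41.8, 27.5 and 28.1 CPM in Ctrl, with no overlap, and it was not called. It had 1 count in female CKO 1 and 0 in the other 4 female libraries. Per kilobase, Kdm6a and Uty together reached 8.12 ± 0.417 in female CKO (SD, n = 2) against 10.4 ± 3.2 in female Ctrl (n = 3), and 7.26 ± 0.38 in male CKO (n = 3) against 9.9 ± 0.78 in male Ctrl (n = 4). The male sums did not overlap, with 6.83 to 7.53 in CKO and 9.4 to 11.1 in Ctrl, while the female sums did. Uty made up 30.9% ± 3.23 of the sum in male CKO and 34.8% ± 5.72 in male Ctrl, a difference smaller than the spread between embryos. How reads shared by these homologs were counted is not given in the sources used here.

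**Figure D4:**
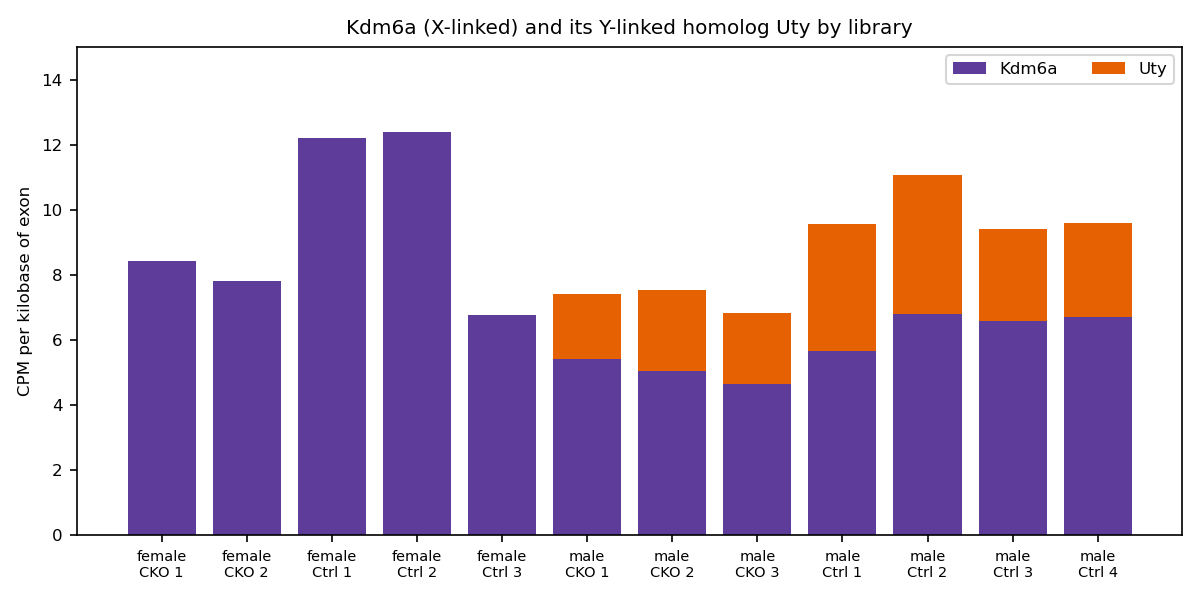
Kdm6a and Uty as CPM per kilobase of exon, stacked for each of the 12 libraries. The stacked bars of the 3 male CKO libraries end at 6.83 to 7.53, below those of the 4 male Ctrl libraries at 9.4 to 11.1, and Uty is at or near 0 in the 5 female libraries.

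Kdm6b, whose inducible product removes H3K27me3 in differentiation and inflammation, was close to the limit of what these libraries measure. It was at 2.52 and 3.58 CPM in female CKO against 1.38, 1.22 and 0.823 CPM in female Ctrl. Both CKO libraries were above all 3 Ctrl libraries, as for 22.2% of all genes tested, and the log2 fold change of 1.41 (95% interval -0.01 to 2.83) did not pass (edgeR adjusted p = 0.217). With only the 2 female groups in the model it passed (1.44, edgeR adjusted p = 0.0422). In males the values were 1.32, 1.39 and 3.03 CPM in CKO against 2.95, 0.33, 1.79 and 3.44 CPM in Ctrl, which overlapped throughout (log2 fold change -0.16, 95% interval -1.37 to 1.05). The difference between the female and the male effect was 1.57 with an edgeR adjusted p of 0.645. Kdm6bos, a transcript on the opposite strand that shares 4.11% of the Kdm6b exon length, stayed at or below 0.293 CPM, and the libraries do not separate strands.

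Of the 4 H3K9 demethylase genes, Kdm3a was called in females and 0 were called in males in edgeR, and their summed level is given as a description. Summed per kilobase over Kdm3a, Kdm3b, Kdm4a and Kdm4c, they reached 23.6 ± 0.207 in female CKO (SD, n = 2) against 35.9 ± 1.35 in female Ctrl (n = 3). In males the sum was 28.4 ± 1.05 in CKO (n = 3) against 36.9 ± 5.77 in Ctrl (n = 4). The ranges were apart in females, at 23.4 to 23.7 in CKO and 34.8 to 37.4 in Ctrl, and in males, at 27.2 to 29.0 in CKO and 31.1 to 44.9 in Ctrl, while single genes were lower without overlap for 22.3% of all genes tested in females and 6.97% in males. Most of this sum is Kdm3a.

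Kdm3a encodes a demethylase of mono- and dimethylated H3K9 that is needed for sperm formation in mouse. It was at 125 and 109 CPM in female CKO, against 212, 191 and 188 CPM in female Ctrl. Both CKO values lay below every Ctrl value, as for 22.3% of all genes, and Kdm3a fell to 0.593 times its Ctrl level (log2 fold change -0.76, SE 0.15, 95% interval -1.08 to -0.43, edgeR adjusted p = 0.012). Male values were 147, 162 and 136 CPM in CKO against 235, 161, 182 and 176 CPM in Ctrl. Male CKO 2 and male Ctrl 2 overlapped, and the male difference did not pass (log2 fold change -0.35 with an SE of 0.12, edgeR adjusted p = 0.171). The mean effect of both sexes was -0.55 (SE 0.1, edgeR adjusted p = 0.00302). The female effect minus the male effect was -0.41 (SE 0.19, 95% interval -0.82 to 0) and was not called (edgeR adjusted p = 0.596), so the effects were not shown to differ between the sexes. The female call ended without female CKO 2 (-0.65, edgeR adjusted p = 0.107) and held without female CKO 1 (-0.86, edgeR adjusted p = 0.0447).

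Kdm4c and Kdm4a encode demethylases of trimethylated H3K9 that also act on H3K36. Kdm4c was at 15.8 and 16.8 CPM in female CKO, against 22.7, 22.1 and 19.4 CPM in female Ctrl. In males it was at 20.6, 25.4 and 23.3 CPM in CKO, against 36.5, 25.7, 31.7 and 31.9 CPM in Ctrl. It was the 1 gene of the 10 whose CKO values lay below all Ctrl values in both sexes, which was so for 3.93% of all genes tested, although male CKO 2 and male Ctrl 2 were 25.4 and 25.7 CPM. The mean effect was -0.42 (SE 0.11, edgeR adjusted p = 0.0218), from -0.39 in females (edgeR adjusted p = 0.174) and -0.45 in males (edgeR adjusted p = 0.121). The mean call ended on leaving out female CKO 1 (edgeR adjusted p = 0.0865), female CKO 2 (0.0623), female Ctrl 1 (0.0504) or female Ctrl 2 (0.0503), and when libraries were scaled by their totals alone (-0.35, edgeR adjusted p = 0.0615). Without male Ctrl 2 the male value passed (-0.53, edgeR adjusted p = 0.0464).

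Kdm4a was at 14.1 and 14.4 CPM in female CKO against 19.4, 22.1 and 21.4 CPM in female Ctrl, which did not overlap (log2 fold change -0.56, edgeR adjusted p = 0.227). Male values were 20.2, 12.1 and 18.9 CPM in CKO against 32.7, 16.3, 21.8 and 21.5 CPM in Ctrl, which did (-0.44, edgeR adjusted p = 0.345). Its mean effect of -0.5 did not pass in edgeR (adjusted p = 0.0711) and did in limma-voom (0.0242) and DESeq2 (0.0414). Kdm3b, a relative of Kdm3a, was at 48.1 and 68.5 CPM in female CKO against 61.2, 64.4 and 69.4 CPM in female Ctrl (-0.16, edgeR adjusted p = 0.626). Male values were 56.7, 40.7 and 48.1 CPM in CKO against 61.3, 60.3, 61.2 and 75.4 CPM in Ctrl, with no overlap (-0.41, SE 0.14, edgeR adjusted p = 0.167). The gene Gm26538 on the opposite strand overlaps 24.6% of the Kdm3b exon length in GENCODE M21, and its reads cannot be told apart from those of Kdm3b.

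None of the H3K9 methyltransferase genes was called in CKO cells of either sex. Ehmt1 and Ehmt2 encode GLP and G9a, which form the heterodimer that places most H3K9 dimethylation. Ehmt1 was at 78.9 and 96.4 CPM in female CKO against 105, 80.8 and 81.6 CPM in female Ctrl (log2 fold change -0.03, 95% interval -0.4 to 0.35). In males it was at 98.7, 80.1 and 68.2 CPM in CKO against 88.2, 67.6, 85.7 and 85.4 CPM in Ctrl (0.01, 95% interval -0.3 to 0.33). CKO and Ctrl values of Ehmt1 were thus interleaved in both sexes, and the intervals allow changes in either direction. Ehmt2 was at 102 and 110 CPM in female CKO against 122, 101 and 104 CPM in female Ctrl (-0.04, 95% interval -0.57 to 0.49). In males it was at 137, 103 and 101 CPM in CKO against 188, 95.3, 110 and 174 CPM in Ctrl (-0.32, 95% interval -0.77 to 0.12). The male Ctrl values of Ehmt2 formed a high and a low pair of libraries that spanned the CKO range.

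Setdb1 was at 225 and 160 CPM in female CKO against 232, 230 and 222 CPM in female Ctrl. Female CKO 1 lay within the Ctrl range and female CKO 2 well below it (log2 fold change -0.25, 95% interval -0.53 to 0.04, edgeR adjusted p = 0.289). Male values were 237, 257 and 224 CPM in CKO against 308, 253, 287 and 275 CPM in Ctrl, with male CKO 2 above male Ctrl 2 (-0.23, 95% interval -0.47 to 0.01, edgeR adjusted p = 0.321). The mean effect was -0.24 (edgeR adjusted p = 0.0835), and it passed in limma-voom (adjusted p = 0.0388) and without female CKO 1 (-0.37, edgeR adjusted p = 0.016). Cers2 on the opposite strand, at 33.8 to 86.9 CPM, shares 1.09% of the Setdb1 exon length.

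Suv39h1, X-linked, encodes a methyltransferase that trimethylates H3K9 in pericentromeric heterochromatin. It was at 170 and 125 CPM in female CKO against 204, 182 and 106 CPM in female Ctrl, where the spread within each group was wider than the gap between them (log2 fold change -0.15, 95% interval -0.61 to 0.31). In males it was at 102, 107 and 94.3 CPM in CKO against 132, 106, 124 and 123 CPM in Ctrl (-0.26, 95% interval -0.65 to 0.13). The order of the 5 female libraries in Suv39h1 was the same as in the X-wide median, from female Ctrl 1 down to female Ctrl 3. Gm14820 on the opposite strand shares 14.6% of the Suv39h1 exon length and did not exceed 0.301 CPM.

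In male Ctrl the same libraries were often highest or lowest. Male Ctrl 1 was the highest male Ctrl library in 7 of the 10 genes and male Ctrl 2 the lowest in 9. Male Ctrl 1 also had the highest summed Sertoli markers, 49.5 CPM against 18.1 to 21.2 in the other male Ctrl libraries and 16.4 to 39.1 in male CKO, and the highest Leydig markers at 7.01 CPM. Without male Ctrl 1 the male log2 fold changes were -0.22 in Kdm3a and -0.36 in Kdm4c, and without male Ctrl 2 they were -0.42 and -0.53.

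Between the sexes, Kdm6a was higher and Kdm4c lower in female germ cells in both genotypes. Among Ctrl embryos 3 of the 10 genes were called, Kdm6a higher and Kdm4c and Setdb1 lower, against 39.5% of all genes tested, and among CKO embryos 2 of 10, Kdm6a and Kdm4c, against 38.4%. The shares of the 10 genes called between the sexes were thus not above those of all genes. Kdm6a was at 68 ± 3.48 CPM in female CKO (SD, n = 2) against 42.1 ± 3.22 CPM in male CKO (n = 3), and the log2 fold change was 0.69 with an SE of 0.2 (edgeR adjusted p = 0.0157). In Ctrl embryos it was at 87.6 ± 26.8 CPM in females (n = 3) against 53.9 ± 4.42 CPM in males (n = 4), where the log2 fold change was 0.7 with an SE of 0.17 (edgeR adjusted p = 0.00518), although female Ctrl 3, at 56.6 CPM, lay within the male range. Leaving out female CKO 1 ended the call among CKO (0.64, edgeR adjusted p = 0.0941).

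**Figure D5:**
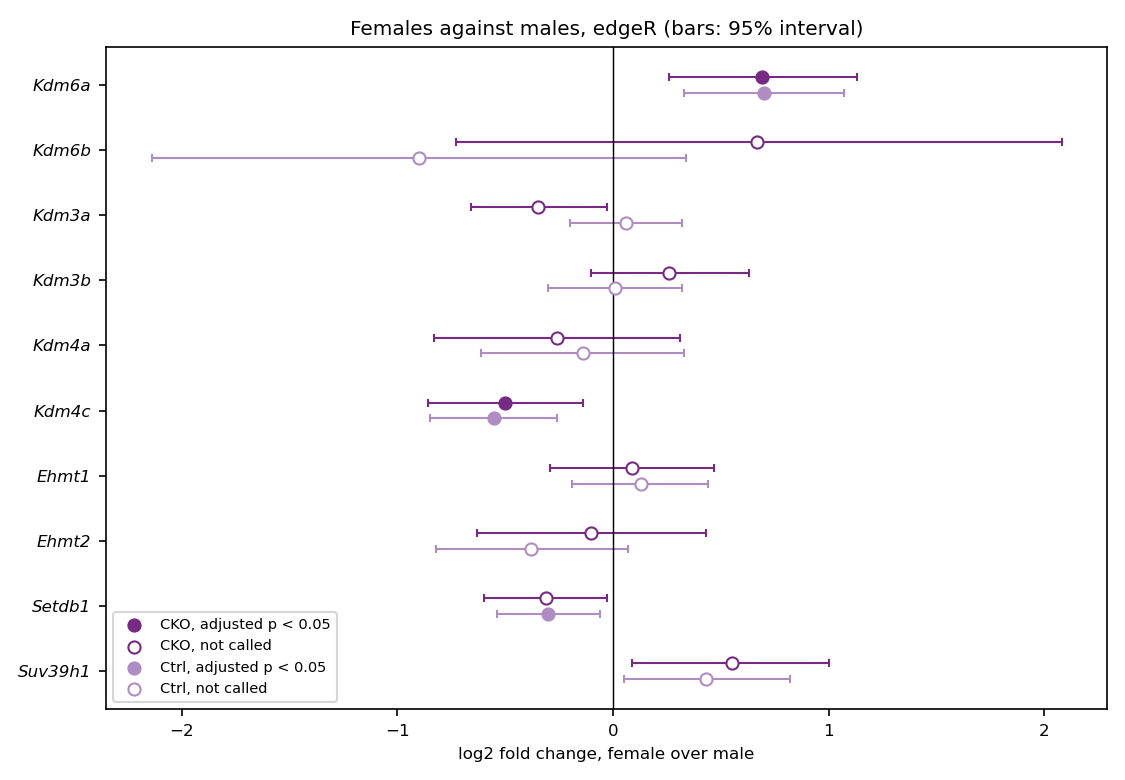
Log2 fold change of females over males from edgeR for each gene among CKO (dark) and Ctrl (light) embryos, with 95% intervals. Filled points, at an adjusted p under 0.05, are Kdm6a above 0 and Kdm4c below 0 in both genotypes and Setdb1 below 0 among Ctrl.

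Kdm4c was at 16.3 ± 0.738 CPM in female CKO against 23.1 ± 2.4 CPM in male CKO (log2 fold change -0.5 with an SE of 0.17, edgeR adjusted p = 0.03), and at 21.4 ± 1.79 CPM in female Ctrl against 31.4 ± 4.43 CPM in male Ctrl (-0.55, SE 0.14, edgeR adjusted p = 0.00624). Every female library was below every male library of its genotype, as for 30.8% of all genes among CKO and 21.1% among Ctrl. The call among CKO ended on leaving out female CKO 1 (edgeR adjusted p = 0.15), female CKO 2 (0.0855), male CKO 2 (0.098) or male CKO 3 (0.0746), and when libraries were scaled by their totals alone (-0.32, edgeR adjusted p = 0.169). Setdb1 was at 228 ± 5.15 CPM in female Ctrl against 281 ± 23.3 CPM in male Ctrl (-0.3, SE 0.11, edgeR adjusted p = 0.0473). This call was close to the threshold and held in 3 of the 12 runs that left out 1 library. Among CKO embryos Setdb1 had a similar value (-0.31) that did not pass (edgeR adjusted p = 0.0796).

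Suv39h1 was at 148 ± 31.4 CPM in female CKO against 101 ± 6.37 CPM in male CKO, with no overlap, as for 33.4% of all genes, and at 164 ± 51.2 CPM in female Ctrl against 121 ± 10.7 CPM in male Ctrl, with overlap. Neither difference passed (log2 fold change 0.55 with an edgeR adjusted p of 0.057 among CKO, and 0.43 with 0.0696 among Ctrl). Among CKO it passed in edgeR with scaling by library size only (adjusted p = 0.0193), with a filter of 5 CPM (0.0334), with only the 2 groups compared (0.00946) and in 4 of the 12 runs that left out 1 library, and in DESeq2 (0.04). Among Ctrl it passed by library size only (edgeR adjusted p = 0.0343) and in limma-voom (0.0458). Without female Ctrl 3 the value among Ctrl was 0.68 (edgeR adjusted p = 0.00148), the 1 of the 12 such runs that passed. Kdm3a was lower in female than in male CKO embryos without overlap (-0.35, edgeR adjusted p = 0.0794), and in Ctrl embryos the sexes overlapped (0.06, edgeR adjusted p = 0.72). The other genes were not called between the sexes, with log2 fold changes from -0.9 (Kdm6b among Ctrl) to 0.67 (Kdm6b among CKO). Summed Sertoli markers were higher in males, at 10.3 to 11.2 CPM in female CKO against 16.4 to 39.1 in male CKO. Among Ctrl they were at 10.8 to 13.7 in females against 18.1 to 49.5 in males. Amh and Cst9 were at 0 in all 5 females, while Aard, at 10.2 to 13.6 CPM, made up most of each female sum. Aard overlapped between the sexes in both genotypes, at 7.87 to 19.9 CPM in males. Summed pregranulosa markers (Foxl2, Fst, Wnt4, Bmp2 and Irx3) were higher in females. They were at 15.7 to 16 CPM against 2.84 to 3.44 among CKO and at 13.7 to 23.7 against 2.65 to 4.41 among Ctrl. Fst went the other way among CKO. The part of these markers in the sex differences was not tested.

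Some genes that work with these enzymes were called in CKO females and in the mean of both sexes. Of 17 partners and readers of H3K9 methylation 1 was higher and 2 were lower in females, against 3.01% and 4.16% of all genes tested, and 0 were called in males in edgeR, where 7 passed at an unadjusted p under 0.05 (16.7% of all genes). Cdyl2, a chromodomain protein gene, was at 19.8 and 28.8 CPM in female CKO against 8.38, 7.35 and 9.85 CPM in female Ctrl (log2 fold change 1.51, edgeR adjusted p = 0.047). Cbx3, which encodes the H3K9 methylation reader HP1 gamma, fell to 42.4 ± 1.29 CPM in female CKO against 65.8 ± 11.9 CPM in female Ctrl (-0.63, edgeR adjusted p = 0.0413). Atf7ip, a cofactor that stabilises SETDB1, fell to 76.4 ± 3.38 CPM against 109 ± 17.3 CPM (-0.51, edgeR adjusted p = 0.0474). For the mean of both sexes 1 was higher (6.85% of all genes), Cdyl2 (1.37), and 4 were lower (7.87%), Cbx3 (-0.55), Atf7ip (-0.4) Fam208a (-0.28), a gene of the HUSH silencing complex, and Morc2a (-0.4), a gene of a HUSH-associated ATPase that is named after its value was seen, with edgeR adjusted p from 0.00645 to 0.0448.

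Of 11 PRC2 genes 3 fell in CKO females, Ezh2, Suz12 (-0.72, edgeR adjusted p = 0.0132) and Jarid2 (-0.69, edgeR adjusted p = 0.012). These 3 also fell in the mean of both sexes, against 4.16% of all genes lower in females and 7.87% in the mean. Ezh2 is the gene that the knockout targets, so only Suz12 and Jarid2 compare with these shares. In males 0 of the 11 were called in edgeR, with a smallest adjusted p of 0.0527 (Ezh2). There 2, Ezh2 and Jarid2, were lower at an unadjusted p under 0.05 (8.2% of all genes). Of 8 further demethylase genes, 0 were called in females, males or the mean in edgeR, and 1 passed at an unadjusted p under 0.05 in each, against 23.3%, 16.7% and 29.2% of all genes. Of 3 further H3K9 methyltransferase genes 0 were called in either sex in edgeR. At an unadjusted p under 0.05, 1 in females and 0 in males passed, against 23.3% and 16.7% of all genes. In the mean 1 of the 3 fell, Prdm2, a PR domain factor (-0.51, edgeR adjusted p = 0.0494), against 7.87% of all genes called lower. Of 9 genes of the complex that holds KDM6A, 0 were called in edgeR in either sex, where 4 in females and 1 in males were lower at an unadjusted p under 0.05 (12.3% and 8.2% of all genes).

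Between the sexes, 1 of the 17 partners and readers of H3K9 methylation was higher and 2 were lower in females among CKO, and 3 were higher and 3 lower among Ctrl. Of the 11 PRC2 genes 2 were higher and 4 lower among CKO, and 2 higher and 2 lower among Ctrl. Of the 8 further demethylase genes 3 were higher and 3 lower among CKO, and 2 higher and 3 lower among Ctrl, Uty among the lower in both. Of the 9 genes of the KDM6A complex, 1 was higher and 4 were lower in female than in male CKO germ cells, and 1 higher and 5 lower among Ctrl, against 19.4% higher and 19% lower over all genes among CKO and 20.1% and 19.4% among Ctrl. The 4 with the smallest adjusted p among CKO were Dpy30 (log2 fold change -0.91 among CKO and -0.49 among Ctrl), Ash2l (-0.66 and -0.27), Paxip1 (-0.93 and -0.41) and Rbbp5 (-0.61 and -0.35). These subunits were thus lower in female cells of both genotypes, while Kdm6a itself was higher in both. Among H3K9 partners Atf7ip2 was higher in females in both genotypes (1.03 among CKO and 0.77 among Ctrl), Trim28, the corepressor that recruits SETDB1, was lower in females (-0.57 and -0.49), and so was Wiz, a G9a and GLP partner (-0.46 and -0.43). Setdb2 was higher in females (0.72 and 0.59). Cbx5, the gene of HP1 alpha, was called higher among Ctrl (0.35). Ncoa6 was the gene of the KDM6A complex that was higher in females (0.66 and 0.44). Of the PRC2 genes Phf19 was higher in females (2.62 and 2.63), Eed (-0.62 and -0.33) and Mtf2 (-0.45 and -0.54) were lower, Jarid2 (-0.63) and Suz12 (-0.54) were called lower and Phf1 (1.03) higher among CKO, and Ezh2 was called higher among Ctrl (0.33). Among the other demethylases Kdm4b was lower (-0.48 among CKO and -0.67 among Ctrl), Phf2 was higher (1.18 and 0.81) and Kdm1a lower (-0.45 and -0.4), and Kdm7a (0.74) and Kdm4d (1.65) were called higher among CKO and Phf8, X-linked, among Ctrl (0.79). Kdm4d was low, at 4.51 and 1.44 CPM in female CKO against 0.744, 0.52 and 1.58 CPM in male CKO, which overlapped. All log2 fold changes of this paragraph passed in edgeR, with adjusted p from 1.71e-08 in Phf19 to 0.0492 in Ezh2.

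No gene of the table was called for a difference of the CKO effect between the sexes in edgeR, where 1401 genes passed at an unadjusted p under 0.05, or 8.39% of all tested, and none of them was among the 10. DESeq2 called 61 genes and limma-voom 0. The 10 genes ranged from -0.41 in Kdm3a to 1.57 in Kdm6b, with edgeR adjusted p from 0.596 to 0.999.

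The genes whose pattern over the 12 libraries was closest to that of Kdm3a, by the root mean square difference of log2 CPM centred on each gene's mean, were Zranb3 (0.0829), Sf3b3 (0.12) and Atp11a (0.121). For Kdm4c they were Kbtbd2 (0.109), Poli (0.122) and Nckipsd (0.124). For comparison, the SD of log2 CPM over the 12 libraries was 0.32 in Kdm3a and 0.361 in Kdm4c. Zranb3, an annealing helicase gene, was at 47 and 44.9 CPM in female CKO against 75.5, 66.1 and 74.3 CPM in female Ctrl, and at 50.8, 59.5 and 53.7 CPM in male CKO against 82.4, 62.7, 70.1 and 67.2 CPM in male Ctrl.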

How the data were processed

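The values are read counts per gene as the authors deposited them, in 1 table of 12 libraries. Per the labels' protocols, sorting was done embryo by embryo, and cDNA from total RNA was amplified with SMART-seq V4 and made into libraries with NEBNext Ultra II, which does not mark the strand. Per the submitters' processing notes, reads passed through CASAVA 1.8.4, Trimmomatic 0.33 and TopHat2 2.0.11 on the builds mm9 and NCBIM37, with featureCounts also named, and the handling of reads that match several places is not given in the sources used here.

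Symbols came from GENCODE M21 on GRCm38, matching 32919 of 37991 rows and 99.5% of the counts, and exon lengths for CPM per kilobase from the same annotation. Genes passed filterByExpr (minimum count 10, minimum total 15), which left 16708, and libraries were scaled by TMM. CPM values use the scaled sizes. A robust quasi-likelihood model in edgeR 4.0.16 (limma 3.58.1, R 4.3.3) had 1 coefficient per group over all 12 libraries and 8 residual degrees of freedom. Its code was run on counts simulated with the spread estimated from these data, which cannot show how well the model fits these libraries. Benjamini-Hochberg adjustment of the p-values ran over the 16708 genes, and p-values measure the spread between embryos. The SE was derived from the F statistic. Alternatives were 2 other scalings, 2 other filters, limma-voom, DESeq2 1.42.0, a replicate block, only the 2 groups compared, and leaving out each library.

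The 10 genes, the lists of partner genes and the tests were chosen with earlier results of these data known. Beside the 10 genes, the text names Ezh2, Uty, up to 4 called genes per partner list and contrast by smallest adjusted p, and the 3 genes closest in pattern to each gene called in a CKO contrast. No 2 libraries of a group agreed within counting noise.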

Additional observations from a re-analysis of the deposited data

Results flagged for a closer look

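Groups of 4 libraries were checked for a value far from the other 3, which among these genes meant male Ctrl. Kdm3b was at 75.4 CPM in male Ctrl 4, against 60.3 to 61.3 CPM in the other male Ctrl libraries. Ehmt1 was at 67.6 CPM in male Ctrl 2, against 85.4 to 88.2 CPM in the others. These are 2 of 10 genes checked, and chance alone gives about 1 in 20.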

How the results depend on the processing

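Of the values of single genes under alternatives, 995 kept their direction and their side of the threshold, 38 passed it, 39 no longer did and 30 changed sign, all of the last among values far from the threshold. With only the 2 groups compared, 2 of the 10 genes were called in females and 4 between the sexes among CKO. In limma-voom 2 were called in males, 5 in the mean of both sexes and 4 between the sexes among CKO, and in DESeq2 1 in males. With scaling by library size only 1 was called in the mean, and with no filter on low counts 1 between the sexes among CKO. Leaving out 1 library at a time gave 0 to 2 called in females, 0 to 1 in males, 1 to 3 in the mean, 2 to 5 between the sexes among Ctrl and 1 to 3 among CKO. The cause of these shifts was not tested.

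Small values changed sign. In females Ehmt1 was 0.09 by library size only, 0.04 with the 5 CPM filter and 0.02 in limma-voom, and Ehmt2 was 0.07 by library size only and 0.02 with that filter. In males Ehmt1 was -0.05 in limma-voom, and between the sexes among CKO Ehmt2 was 0.09 by library size only. Without single libraries the female values ran from -0.42 to 0.08 in Kdm3b, -0.17 to 0.12 in Ehmt1, -0.08 to 0.06 in Ehmt2 and -0.38 to 0.06 in Suv39h1, and the male values from -0.66 to 0.16 in Kdm6b and -0.13 to 0.13 in Ehmt1. Among Ctrl the sex values ran from -0.01 to 0.2 in Ehmt1, -0.03 to 0.09 in Kdm3b, -0.27 to 0.07 in Kdm4a and -0.01 to 0.18 in Kdm3a. Among CKO they ran from -0.01 to 0.49 in Kdm3b, -0.06 to 0.26 in Ehmt1 and -0.16 to 0.08 in Ehmt2.

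The replicate numbers are those of the sample titles, and deviations of same-numbered libraries correlated between -0.116 and 0.185. Column labels number some embryos otherwise, and pairing by those numbers or by litter was not tested. With the replicate number as a block, 1 of the 10 genes was called in females, 0 in males, 2 in the mean, 2 between the sexes among Ctrl, where Setdb1 was lost (edgeR adjusted p = 0.0581), and 2 among CKO, where Kdm4c was lost (0.0536) and Kdm3a passed (0.039). Kdm6b in males was 0.24 with the block.

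Over all genes the female count of 1198 became 2035 in limma-voom and 1989 in DESeq2. The male count of 284 became 1098, 990, 105 with the block and 63 with only the 2 groups compared, and the difference of effects gave 2 genes with no filter and 61 in DESeq2. With scaling by library size only, the median of all genes was 0.21 between the sexes among CKO, against 0.03 with TMM, and 0.11 in females, against 0, which turned 503 higher and 695 lower genes in females into 652 and 357, and 1145 and 1315 in the mean into 1505 and 782. Between the sexes it gave 4062 and 2592 among Ctrl in place of 3358 and 3246, and 4336 and 2212 among CKO in place of 3239 and 3172. Leaving out 1 library gave 317 genes in females without female CKO 2, 348 without female CKO 1, 425 without female Ctrl 3, 525 without female Ctrl 2 and 691 without female Ctrl 1, and in males 36 without male CKO 2, 48 without male CKO 3, 85 without male Ctrl 3, 151 without male Ctrl 4, 186 without female Ctrl 2 and 502 without male Ctrl 2. In the mean it gave 1363 without female CKO 2, 1415 without female CKO 1, 1533 without male CKO 3 and 1624 without female Ctrl 3, and between the sexes among CKO 4063, in place of 6411, without female CKO 1. Kdm6b, with 8 to 119 counts, is the gene that depth limits most.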
